A study of Rattus norvegicus with 4 samples.

Results

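The 10 genes described here encode transcription factors and coactivators that control whether a cell takes on and keeps the smooth muscle state. They are the serum response factor Srf, its coactivators Myocd, Mkl1 and Mkl2, the Ets factor Elk1, the muscle and mesoderm factors Mef2c and Gata6, the Krüppel-like factors Klf4 and Klf5, and the mesenchymal factor Tcf21. They were chosen by name, out of 27040 genes and unnamed probes on the array. In the authors' table, 7 were listed under these symbols and Mkl2 under an older locus name, which RefSeq gives as its synonym. Gata6 and Tcf21 were found only in the spot table, through the accessions of their probes. RefSeq now calls Mkl1 and Mkl2 Mrtfa and Mrtfb, and the labels of the array are kept here.

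RNA was measured in bone marrow cells of Wistar rats aged 6 weeks, on 2 arrays after 15 days of culture at high density and on 2 arrays after 15 days at regular density. The study describes 2 independent experiments, in which different high density cells were used each time and regular density cells served as the control. No allele, transgene or drug treatment is named for either group, and the sources used here give no seeding numbers, media or number of rats behind each culture. The assay was a one-colour Agilent array, in which amplified RNA carrying the dye Cy3 is read at printed probes, and the values below are spot intensities scaled to the 75th percentile of each array. They are given for replicates 1 and 2 of a group in that order. A probe counted as above background where it exceeded the 99th percentile of 153 negative control spots of its array.

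Smooth muscle genes are switched on when Srf binds a short DNA element, the CArG box, together with a coactivator. Myocardin, the product of Myocd, is a strong coactivator found mainly in heart and smooth muscle. The myocardin-related factors made from Mkl1 and Mkl2 are present in many cells and are held in the cytoplasm by monomeric actin until actin filaments are built. Elk1 carries growth factor signals to the same Srf, where it competes with myocardin. Klf4 is known from rodent vessels to repress contractile genes, and Klf5 to accompany the growing, less contractile state.

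The Srf promoter carries CArG boxes of its own, and its letters are shown because Srf had the largest change among the genes tested. RefSeq windows of the GRCr8 build, from 250 bases before to 50 bases after the start of transcription, were matched for 8 of the 10 genes. Myocd and Mef2c were not matched. The 130 bases upstream of Srf lie at chr9:21923946-21924075 on the plus strand. Capitals mark 1 Ets core motif, CCGGAAG, and then 2 CArG boxes.
Srf: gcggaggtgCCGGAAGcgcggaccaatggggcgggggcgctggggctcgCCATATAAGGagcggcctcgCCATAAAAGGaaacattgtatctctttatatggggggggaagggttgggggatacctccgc
The boxes begin 81 and 61 bases before the start, with 10 bases between them, and the Ets motif begins 121 bases before it. None of these matches overlap, and both boxes read CC, then only A or T, then GG. A CArG box, which reads alike on both strands, was found in 548 of 33469 such windows (1.64%), and more than 1 in 7 windows (0.0209%). CCGGAAG on either strand was found in 2927 windows (8.75%). Among the 8 matched genes, only the Srf window held a CArG box, and only the Srf window held CCGGAAG. These matches are descriptions of letters, and binding was not measured.

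After high density culture, Srf, Mef2c and Mkl1 were higher and Klf4 was lower. Klf5 and Elk1 were tested and not called, and Myocd, above background on the high density arrays alone, had a mean too low for the test. Mkl2, Gata6 and Tcf21 lay under background on all 4 arrays. The 6 tested genes were those above background on all 4 arrays. Of these 6, 3 rose and 1 fell at an adjusted p under 0.05 with limma. Across all 13676 features tested, 13.0% rose, 17.9% fell and 30.9% (4231) changed in either direction, and 2440 changed in a fit without high density replicate 1. The groups did not overlap for any of the 6 tested genes, and for 69.7% of all features. The median log2 change was 0.22 over the 6 genes and -0.08 over all features. In bulk RNA, a change in the number of cells of a type and a change in RNA per cell cannot be told apart.

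Srf, the DNA-binding partner on which the coactivators act, read 2370 and 2428 at high density and 1261 and 1242 at regular density. Both high density arrays stood above both regular density arrays, and each pair of replicates lay close together. The log2 change was 0.94 (SE 0.09, 95% interval 0.72 to 1.16, adjusted p = 0.00109 with limma, n = 2 arrays per group). This is a 1.92-fold rise, with an interval of 1.65 to 2.23. Replicates with the same number differed by 0.91 and 0.97 log2. The authors place the probe at chr9:9797512-9797571 without naming the genome assembly, so this position and the GRCr8 positions cannot be set side by side.

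Mkl1, the coactivator that monomeric actin holds back, was measured by 2 probes 894 bases apart. The brighter one (chr7:119306286-119306345) read 2855 and 2439 at high density and 1945 and 1738 at regular density. The groups did not overlap, and the regular density arrays lay lower. The log2 change was 0.52 (SE 0.12, 95% interval 0.23 to 0.81, adjusted p = 0.0206 with limma), or 1.44-fold with an interval of 1.18 to 1.75. The other probe (chr7:119307240-119307299) read 141 and 114 at high density and 109 and 101 at regular density. Its groups did not overlap either, and its log2 difference was 0.27. The call for Mkl1 was lost when its probes were averaged (0.40, adjusted p = 0.0557 with limma) and under median scaling (0.40, adjusted p = 0.0848 with limma). It was also lost without high density replicate 1 (0.41, adjusted p = 0.126 with limma) and without regular density replicate 2 (0.44, adjusted p = 0.0521 with limma). In such fits the lone array of a group is assumed to vary like the other group.

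Myocd, the muscle-restricted coactivator (probe at chr10:51498289-51498348), read 46.7 and 39.3 at high density and 18.5 and 23.6 at regular density. It was above background on both high density arrays and on neither regular density array, and the groups did not overlap. Against the background of the regular density arrays it was at least 1.25-fold higher at high density. The bound sets the mean log2 value of the high density arrays against the mean log2 background of the regular density arrays. Its mean was under the filter on dim probes. When all probes were tested without that filter, its log2 difference of 1.04 had an adjusted p of 0.053 with limma. With intensities floored at 32 the difference was 0.42.

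Mkl2, the second myocardin-related factor (probe at chr10:1198698-1198757), read 12.2 and 13.1 at high density and 10.5 and 15.2 at regular density. None of these values exceeded background, so no fold is given. Elk1, which brings growth factor signals to Srf (chrX:12598051-12598110), read 106 and 106.5 at high density and 114 and 110.0 at regular density. Its regular density arrays were the higher ones by a small margin. The log2 change was -0.08 (SE 0.15, 95% interval -0.43 to 0.27, adjusted p = 0.710 with limma). It turned to 0.03 without scaling, and the interval leaves room for either sign.

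**Figure D1:**
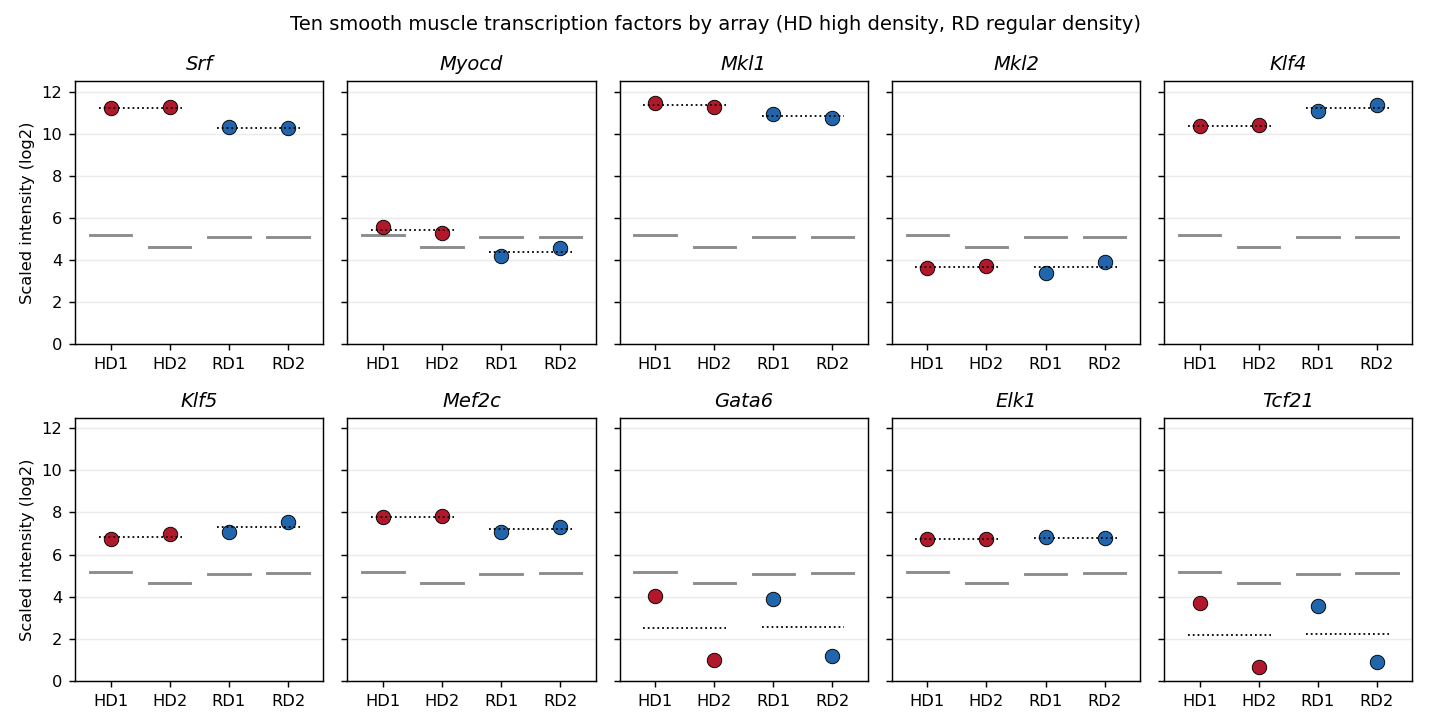
Scaled intensity (log2, y axis) of each of the 10 factors on high density (HD, red) and regular density (RD, blue) replicates 1 and 2, for the probe with the highest mean. Grey bars are each array's background and dotted lines the group means. Srf, Mkl1 and Mef2c were higher on both high density arrays, Klf4 was lower on both, and Mkl2, Gata6 and Tcf21 lay under background on all 4 arrays.

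Mef2c belongs to the same MADS-box family as Srf and drives muscle genes, and in mouse it acts upstream of Myocd. Its probe (chr2:12329521-12329580) was printed 10 times on each array. The averaged spots read 218 and 229 at high density and 137 and 159 at regular density. Both high density arrays stood above both regular density arrays. Single spots ran from 191 to 235 and from 181 to 268 at high density, and from 115 to 153 and from 145 to 174 at regular density. Spots of 1 array are repeated readings of the same RNA and were averaged before the test. On the log2 scale their SD was 0.09 and 0.15 at high density and 0.13 and 0.07 at regular density. The log2 change was 0.60 (SE 0.13, 95% interval 0.28 to 0.92, adjusted p = 0.0182 with limma), a 1.52-fold rise with an interval of 1.22 to 1.89. The call was lost without high density replicate 2 (0.56, adjusted p = 0.0545 with limma) and without scaling (0.71, adjusted p = 0.0651 with limma).

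Gata6, a zinc finger factor of the vessel wall, read 16.6 and 1.98 at high density and 14.9 and 2.27 at regular density, with no array above background. The values split by replicate number and not by group. The median negative control spot split in the same way, with 13.4 and 1.93 at high density and 10.5 and 1.99 at regular density.

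Klf4, the zinc finger repressor of contractile genes (chr5:73446994-73447053), read 1322 and 1353 at high density and 2192 and 2647 at regular density. Both high density arrays were lower than both regular density arrays, and the regular density arrays lay farther apart. The log2 change was -0.85 (SE 0.12, 95% interval -1.13 to -0.56, adjusted p = 0.00431 with limma). Klf4 was 1.80-fold lower, with an interval of 1.48 to 2.19. Replicates with the same number differed by -0.73 and -0.97 log2.

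Klf5, known from the synthetic smooth muscle of injured and developing vessels, was measured by 2 probes 10310 bases apart. The brighter one (chr15:83118108-83118167), printed 10 times, read 107 and 125 at high density and 137 and 185 at regular density. The groups did not overlap, with regular density replicate 2 the highest. Its single spots ran from 81.2 to 136 and from 108 to 141 at high density, and from 112 to 165 and from 161 to 211 at regular density, so spots of the groups overlapped. The log2 change was -0.47 (SE 0.19, 95% interval -0.92 to -0.01, adjusted p = 0.110 with limma). It was called without regular density replicate 1 (-0.69, adjusted p = 0.0413 with limma), under median scaling (-0.59, adjusted p = 0.0362 with limma) and with the replicate number as a block (-0.47, adjusted p = 0.0091 with limma). The other probe spans 1145 bases of genome (chr15:83106653-83107797). It read 13.1 and 30.7 at high density and 17.6 and 15.3 at regular density, and was above background only on high density replicate 2. Its groups overlapped and its difference of 0.29 had the opposite sign. As the mean over both probes, the Klf5 change was -0.09 (adjusted p = 0.854 with limma).

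Tcf21, a basic helix-loop-helix (bHLH) factor of mesenchymal precursors, which in mouse heart restrains smooth muscle differentiation, read 13.2 and 1.59 at high density and 11.8 and 1.85 at regular density. As for Gata6, no array was above background and the values split by replicate number.

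**Figure D2:**
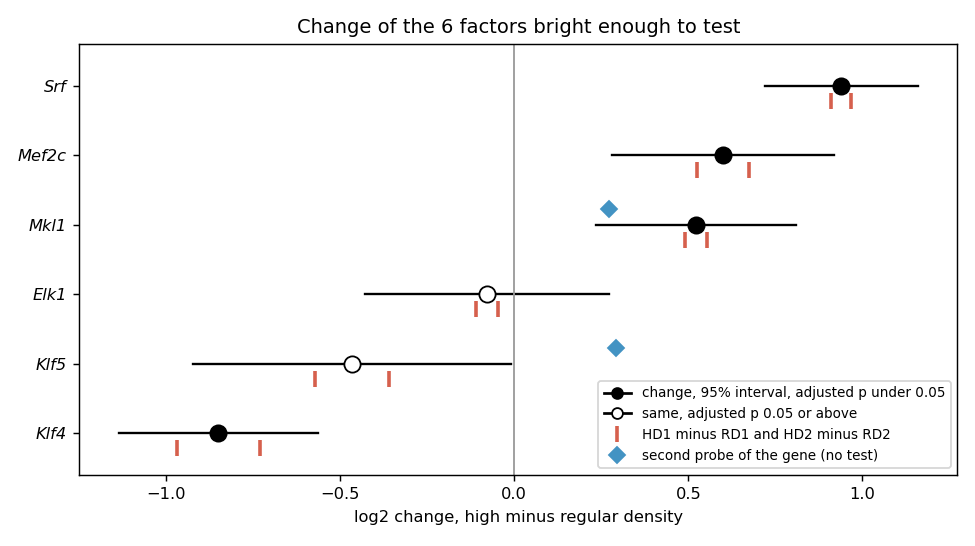
Log2 change from regular to high density (x axis) of the 6 factors bright enough to test, with 95% intervals; filled points had an adjusted p under 0.05, red ticks are differences between arrays of the same replicate number, and blue diamonds are the second probes of Mkl1 and Klf5. Srf (0.94), Mef2c (0.60) and Mkl1 (0.52) lie above 0 and Klf4 (-0.85) below it.

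By Euclidean distance of centred log2 values over the 4 arrays, the genes nearest to Srf among 10146 tested named genes were Rad18, B3gnt7 and Dstn. Rad18, a ubiquitin ligase of DNA damage tolerance, read 159.0 and 159.0 at high density and 81.7 and 81.9 at regular density (distance 0.04). B3gnt7, a glycan-extending enzyme, read 392.5 and 394 at high density and 205 and 197 at regular density (distance 0.04). Dstn, the actin-depolymerizing protein destrin, read 15220 and 15760 at high density and 8043 and 8306 at regular density (distance 0.05). All have the same step as Srf, with log2 changes of 0.96, 0.97 and 0.92, as the measure requires.

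Genes that act with these factors were read from 6 lists. Each count is to be set against all features tested, of which 13.0% rose and 17.9% fell. Alternatives counted for listed genes and markers leave out the unmoderated test, under which no feature passed, so every call was lost there. The authors' values and the series matrix, which hold the same log2 values, are counted separately. Of 18 contractile genes known to carry Srf sites, 16 were tested, 14 rose and none fell, with a median log2 change of 2.31. Of these, Cnn1, the smooth muscle protein calponin, and Acta1, the skeletal muscle actin, passed the filter on dim probes only through their high density values. Cnn1 was under background on both regular density arrays and at least 16.7-fold higher. Of the 14 whose mean passed in each group, 12 rose and none fell, with a median of 1.80. Actg2, a smooth muscle actin, rose from 418 and 383 at regular density to 39340 and 34210 at high density (log2 change 6.52, SE 0.11, adjusted p = 5.28e-06 with limma). Myh11, the smooth muscle myosin heavy chain, rose by 5.18, Myl9, a regulatory light chain, by 3.36, and Acta2, the smooth muscle actin of vessels, by 3.06. The call for Vcl, the adhesion protein vinculin (0.43), was lost in 8 of 16 alternatives, among them without high density replicate 2 (0.29) and without regular density replicate 1 (0.35). Actc1, the cardiac actin, had a change of 0.51 (adjusted p = 0.0761 with limma) and Des, the filament protein desmin, of -0.44 (adjusted p = 0.168 with limma), and neither was called. Actc1 was called in 9 of 16 alternatives. Lmod1, which seeds actin filaments, and Kcnmb1, a potassium channel subunit, had means too low for the test. With neither regular density array above background, they were at least 4.90-fold and 2.63-fold higher at high density.

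Immediate early genes are the other known set of Srf targets, reached mainly through Elk1 and its relatives. Of 10, 9 were tested, 3 rose and none fell, with a median of 0.35. Nr4a1, an orphan nuclear receptor, read 1187 and 1187 at high density and 297 and 285 at regular density (log2 change 2.03, SE 0.09, adjusted p = 1.15e-04 with limma). Ccn1, a matrix-associated signalling protein, rose by 0.80 and Egr1, a zinc finger factor, by 0.65. Fos, the best known Srf target of this kind, read 152 and 153 at high density and 142 and 157 at regular density, with a change of 0.03 (adjusted p = 0.882 with limma), and Junb had -0.07. Ier2 (0.36, adjusted p = 0.0534 with limma) was not called, and was called in 8 of 16 alternatives. The Fos and Junb groups overlapped.

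The myocardin-related factors are controlled by actin and by the kinases and binding proteins that shape it. Of 14 such genes, 12 were tested, 6 rose and none fell, with a median of 0.45. Rock2, a kinase of the cytoskeleton, read 363 and 430 at high density and 218 and 202 at regular density (log2 change 0.91, SE 0.13, adjusted p = 0.00413 with limma). Actb, the cytoplasmic beta actin, rose by 0.70, Pfn1, the monomer-binding profilin, by 0.57 and Cfl1, the filament-severing cofilin, by 0.50. The call for Cfl1 was lost without high density replicate 2 (0.47, adjusted p = 0.0542 with limma), under median scaling and without scaling, and that for Pfn1 under median scaling. Mical2, an actin oxidase, and Rock1, the paralog of Rock2, were the remaining rises, with 0.54 and 0.43. The Mical2 call was lost without scaling and without high density replicate 1 (0.57) or 2 (0.51). The Rock1 call was lost in 5 of 16 alternatives. These included median scaling, no scaling, and leaving out high density replicate 1 (0.36) or regular density replicate 2 (0.34). Actg1, the other cytoplasmic actin (0.04, adjusted p = 0.824 with limma) and Tmsb4x, the monomer-sequestering thymosin (-0.08, adjusted p = 0.606 with limma), were not called. The signs for Actg1 and Tmsb4x changed with the scaling.

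Relatives of the 10 factors moved in both directions. Of 16, 10 were tested, 3 rose and 2 fell, with a median of 0.09. Klf9 read 1883 and 1687 at high density and 987 and 895 at regular density (log2 change 0.92, adjusted p = 0.00221 with limma). Klf6 rose by 0.87 (SE 0.10, adjusted p = 0.00209 with limma) and Klf2, known for the endothelial response to flow, by 0.57 (adjusted p = 0.0251 with limma). The Klf2 call was lost under median scaling, without high density replicate 1 (0.41) and without regular density replicate 2 (0.47). Klf15, a factor of metabolic and glucocorticoid responses, fell from 2157 and 2087 at regular density to 1173 and 1172 at high density (log2 change -0.86, adjusted p = 0.00157 with limma). Klf3, a repressor, had -0.39 (adjusted p = 0.0232 with limma), and its call was lost in 8 of 16 alternatives. These included leaving out either high density array (-0.39 each) or regular density replicate 2 (-0.35). Thus among the Krüppel-like factors measured here, Klf2, Klf6 and Klf9 had the opposite sign to Klf4. Klf3 and Klf15 had the same sign as Klf4, as did Klf10 (-0.16) and the brighter Klf5 probe (-0.47), which were not called.

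Among the closest relatives of Elk1, Elk3 had a change of 0.31 (adjusted p = 0.108 with limma) and Elk4 of -0.20 (adjusted p = 0.246 with limma), neither called. Of the relatives of Mef2c, Mef2d had 0.22 (adjusted p = 0.176 with limma) and was not called. Mef2a was too dim to test, with 1 high density array and no regular density array above background. Gata2 and Gata4 lay under background on all 4 arrays, as did Gata1 and Gata5.

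Of 19 cofactors and repressors of Srf, myocardin and Mef2, 18 were found and 14 tested, of which 5 rose and 1 fell, with a median of 0.23. Csrp2, a LIM-domain protein of smooth muscle known to bridge Srf and Gata factors, read 2290 and 2306 at high density and 409 and 375 at regular density (log2 change 2.55, SE 0.10, adjusted p = 8.06e-05 with limma). The LIM-only proteins Fhl1 and Fhl2 rose by 1.61 and 0.72, the latter known to bind Srf. Hes1, a Notch-responsive repressor, and Nkx2-5, a heart factor, rose by 0.85 and 0.68. Hopx, a homeodomain protein without DNA binding that restrains Srf in mouse heart, had -0.41 (adjusted p = 0.0255 with limma), and its call was lost in 9 of 16 alternatives. These included leaving out the first (-0.43) or second (-0.40) high density array or the second regular density array (-0.33). The Nkx2-5 call was lost in 9 of 15 alternatives, among them without high density replicate 1 (0.46), regular density replicate 1 (0.66) and regular density replicate 2 (0.69). The Hes1 call was lost in 2 of 15, without high density replicate 2 (0.69) and without regular density replicate 1 (0.62). The repressors Foxo4 (-0.38), Hdac5 (-0.27), Yy1 (-0.04) and Zeb1 (0.03) were not called.

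Around Tcf21, 16 bHLH and mesenchymal factors were listed and 11 tested, of which 3 rose and none fell, with a median of 0.27. Id4, which blocks bHLH factors by pairing with them, read 137 and 150 at high density and 36.0 and 54.2 at regular density (log2 change 1.70, SE 0.24, adjusted p = 0.00445 with limma). It passed the filter on dim probes only through its high density values. Of the 10 genes of this list whose mean passed in each group, 2 rose and none fell, with a median of 0.25. Id2, of the same kind, rose by 0.94 and Tbx18, which marks mural cells in mouse, by 0.60. Id1 had -0.51 (adjusted p = 0.249 with limma) with overlapping groups. The general bHLH partners Tcf3 (-0.18), Tcf4 (0.28) and Tcf12 (-0.20) were not called, nor was Twist1 (0.39, adjusted p = 0.0609 with limma), which was called in 9 of 16 alternatives.

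**Figure D3:**
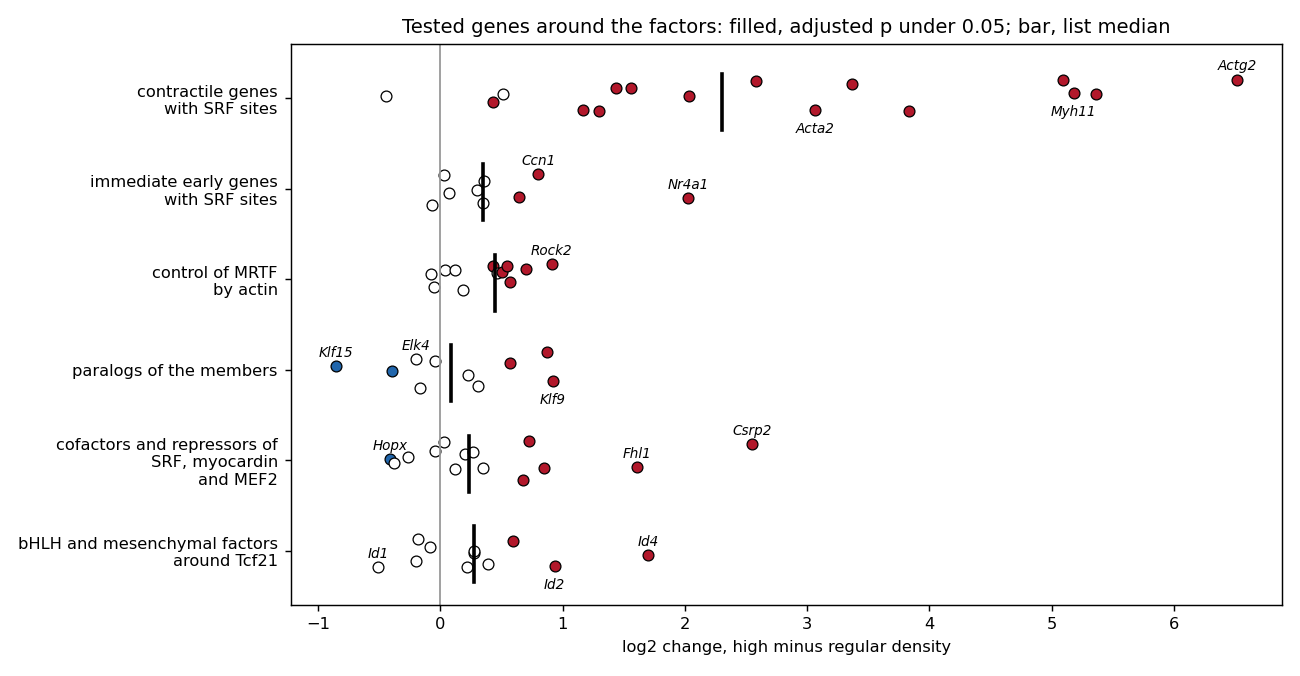
Log2 change from regular to high density (x axis) of each tested gene in 6 lists around the factors; filled points had an adjusted p under 0.05 (red higher, blue lower), black bars are list medians and points are spread vertically for legibility. The contractile list reaches 6.52 (Actg2), whereas Klf15 and Klf9 lie at -0.86 and 0.92.

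CArG boxes ahead of listed genes are shown so that their letters can be set beside these changes. In the same RefSeq windows (GRCr8), a box was found for 2 of 14 matched contractile genes, 2 of 8 immediate early genes, 1 of 12 actin control genes, 1 of 12 relatives, 2 of 18 cofactors and 0 of 15 bHLH and mesenchymal factors. A gene with more than 1 annotated start was counted if any of its windows held a box, whereas the 1.64% given with Srf is a share of windows. Sites farther out or inside genes lie outside this window. All boxes found read CC, then only A or T, then GG. A window without a match may still hold a box that departs from these letters. Each line gives 30 bases on the strand of the gene, with the box in capitals.
Acta1: tgcccaacacCCAAATATGGcttgggaagg
Egr1, distal box: gtcggtccttCCATATTAGGgcttcctgct
Egr1, proximal box: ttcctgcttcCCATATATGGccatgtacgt
Egr2: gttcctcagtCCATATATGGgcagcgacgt
Actg1: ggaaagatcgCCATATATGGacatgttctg
Fhl1: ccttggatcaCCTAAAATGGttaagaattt
Klf6: aataggaaggCCTTTAATGGagaggctcgg
Fhl2, start at the larger coordinate: catttagagaCCAAAAATGGcttgcaggag
Fhl2, start at the smaller coordinate: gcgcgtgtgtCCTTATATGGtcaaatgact
The Acta1 window is chr19:68784269-68784298, minus strand, and its box begins 94 bases before the start. The Egr1 windows are chr18:26736963-26736992 and chr18:26736985-26737014, plus strand, with boxes 105 and 83 bases before the start. The Egr2 window is chr20:21054505-21054534, minus strand, at 83 bases, and the Actg1 window chr10:106121022-106121051, minus strand, at 90 bases. Egr1, Egr2 and Actg1 hold the same 10 letters, CCATATATGG, in 1 box each. Of these, Egr1 rose by 0.65, whereas Egr2 (0.30, adjusted p = 0.163 with limma) and Actg1 (0.04) were not called. The Fhl1 window is chrX:139638384-139638413, plus strand, at 102 bases, and the Klf6 window chr17:69458660-69458689, minus strand, at 201 bases. Another annotated start of Fhl1 had no box in its window. The Fhl2 windows, on the minus strand ahead of separate annotated starts, are chr9:52954616-52954645 at 95 bases and chr9:52923365-52923394 at 58 bases. The box of Actc1 lies after its start and is not printed.

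The submitters call the cells endothelial progenitor cells. Markers called below are to be set against all features tested, of which 13.0% rose and 17.9% fell. Of 7 endothelial markers, only Cdh5, Vwf and Tie1 were above background on all 4 arrays, and Tek and Emcn lay under it on all. None of the 3 tested was called, with log2 changes of 0.42 (Cdh5), 0.09 (Vwf) and 0.17 (Tie1). The summed intensity of these 7 was 587 and 386 at high density and 481 and 433 at regular density. Vwf, the brightest of them, read 339 and 171 at high density and 307 and 166 at regular density, and so split by replicate number. Fibroblast markers summed to 261507 and 244723 at high density and 256540 and 222764 at regular density, with 7 of 7 tested, Thy1 and Lum higher and Dcn lower. The Lum change of 0.40 was not called without replicate 1 of the high density group (0.32) or of the regular density group (0.39). Macrophage markers summed to 29800 and 25468 at high density and 27582 and 26379 at regular density, with 6 of 7 tested, Mrc1 higher, Cd14 lower and Cd163 under background throughout. The Cd14 change of -0.38 was called with all 4 arrays but not when either high density array (-0.41 and -0.34) or the first regular density array (-0.26) was left out. Pericyte markers summed to 14062 and 13685 at high density and 12486 and 13667 at regular density. Of these 6, Mcam rose by 2.33 and Cspg4 by 1.29, Pdgfrb was not called, and Rgs5, Kcnj8 and Abcc9 lay under background on all 4 arrays. Among lymphocyte markers, Cd3d was tested and not called (0.36, adjusted p = 0.119 with limma), and Cd3e and Cd79b lay under background on all arrays.

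Cardiac and skeletal muscle markers bear on Mef2c and Srf, which serve all muscle types. Of the 8 markers, 3 were tested, none rose and 1 fell, beside 13.0% and 17.9% of all features tested. The 8 markers summed to 706 and 610 at high density and 773 and 665 at regular density. Myh6, Myh7 and Nppa, genes of the heart, lay under background on all 4 arrays. Myog, the myogenic factor myogenin, fell from 133.5 and 121.0 at regular density to 43.1 and 40.6 at high density (log2 change -1.60, SE 0.19, adjusted p = 0.00208 with limma), and passed the filter only through its regular density values. Myf5, another myogenic factor (0.06, adjusted p = 0.81 with limma), and Tnnt2, the cardiac troponin T (0.36, adjusted p = 0.0599 with limma), were tested and not called. Myod1, the skeletal muscle determination factor, read 45.2 and 55.0 at regular density and 11.7 and 7.02 at high density, where it was under background and at least 1.66-fold lower. Of the pericyte and fibroblast markers, Mcam, Cspg4, Thy1 and Lum were higher on the same arrays as Srf, and Dcn was lower. Pdgfrb, Pdgfra, Col1a1, Col1a2 and Col3a1 were not called, and Rgs5, Kcnj8 and Abcc9 lay under background. Col1a1 (0.36) was called in 7 of 16 alternatives, Col1a2 (0.09) in 4 and Pdgfra (-0.30) in 3, whereas Pdgfrb and Col3a1 were called in none. The part of pericyte, fibroblast and macrophage markers in the changes of the 10 factors was not tested.

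**Figure D4:**
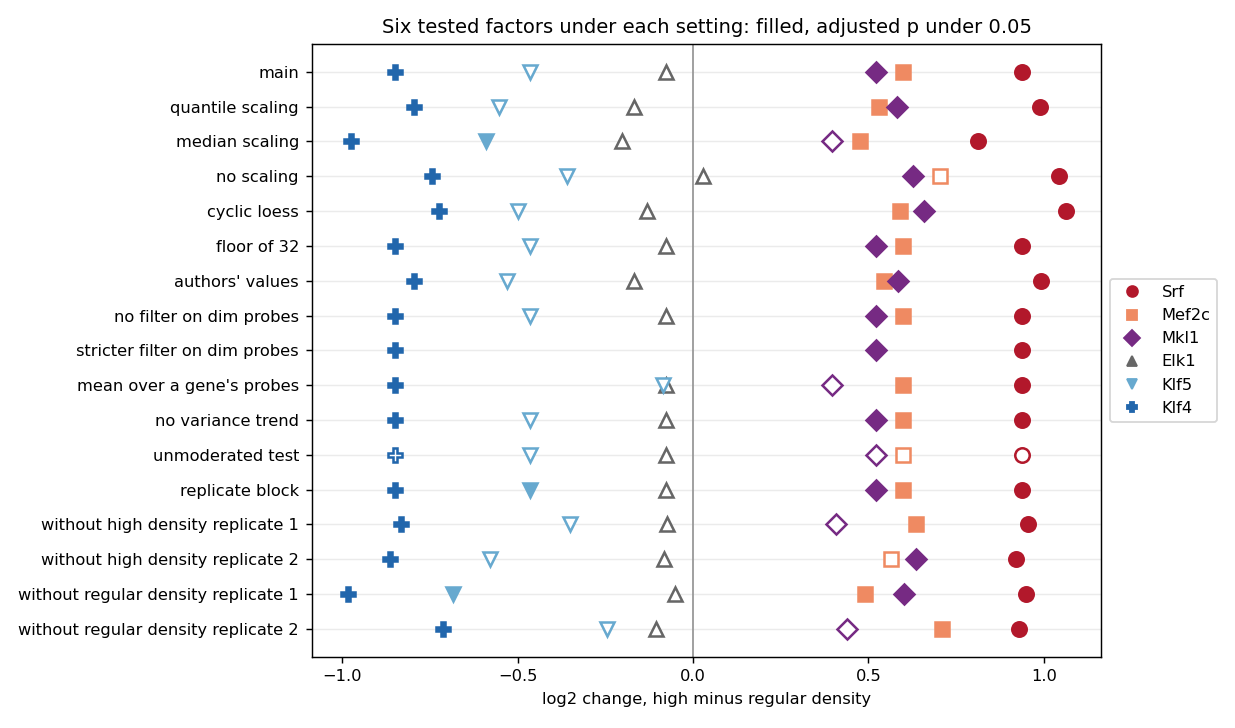
Log2 change from regular to high density (x axis) of the 6 tested factors under each processing setting (rows); filled symbols had an adjusted p under 0.05. Srf and Klf4 were filled in every row except the unmoderated test, whereas Mkl1, Mef2c and Klf5 changed fill in several rows and Elk1 crossed 0 without scaling.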

How the data were processed

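Total RNA was labelled with Cy3 and hybridized to 4 arrays. In the deposited spot table each spot has a linear intensity, the signal after the scanner software's steps, per the file headers (Agilent Feature Extraction 11.0.1.1, per the submitters' processing notes). The authors also deposited normalized log2 values for 21473 probes, for which the header names GeneSpring GX 12.0, and the series matrix holds the same log2 values. The method behind them is not given in the sources used here.

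From 44254 spots per array, 1377 control spots were dropped and the log2 intensities of repeated spots averaged, which gave 30367 probes. Each array was scaled to its 75th percentile, which was 386 and 462 at high density and 355 and 435 at regular density. Probes with a mean log2 value over 5.62, the median, were tested, the brightest probe standing for its gene. Groups were compared with limma 3.58.1 (R 4.3.3; trended, moderated variances, two-sided, Benjamini-Hochberg adjustment over 13676 features). Residual degrees of freedom were 2, plus 4.43 from moderation, and the number of arrays limits the precision. P-values reflect the spread between these arrays alone, which may in part be technical. Tables and plots used Python 3.11.15, pandas 2.3.3, numpy 2.4.6 and matplotlib 3.10.9. The method was also run on simulated arrays, with changes in a small part of the features. Their noise was independent between arrays and held no effect of the replicate number, so that run does not bear on such an effect.

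The labels do not say that a replicate number marks a shared experiment, so arrays were not paired. The 10 genes, the lists and the tests were chosen with earlier results of these data known. Named genes are the 10 with all their probes, up to 4 called genes with the smallest p from each list, Elk3, Elk4, Mef2a, Mef2d, Klf2, Klf6, Gata2 and Gata4 whatever their values, and the 3 genes nearest to the called member with the largest change. Others are named where a small count left them, chosen after their values were seen.

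Alternatives were quantile, median or no scaling, a floor of 32, the authors' values, the series matrix, no or a stricter filter (7.59), the mean over probes, other variance models, the replicate number as a block, and each array left out in turn. Cyclic loess was added after seeing the data. The files used give no slide or scan date, so no such batch was tested.

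A lymphocyte marker of the lists is not reported here.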

Additional observations from a re-analysis of the deposited data

How the results depend on the processing

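Srf and Klf4 kept their direction and their calls in all alternatives except the unmoderated linear model, which left 2 residual degrees of freedom. Under that model no feature passed (0 in all, 0 higher and 0 lower, with 3935 at an unadjusted p under 0.05), so 0 of the 10 factors changed, with adjusted p = 0.0583 for Srf (0.94), 0.135 for Klf4 (-0.85), 0.151 for Mef2c (0.60) and 0.196 for Mkl1 (0.52). In the other alternatives 3 to 5 factors changed.

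The scaling moved the balance of calls. Higher features were 42.0% of calls in the main setting, 27% under median scaling, 49.4% with quantile scaling, 56.1% with cyclic loess and 70.7% without scaling. The median of all features was -0.20 under median scaling and 0.03 without scaling. Without scaling 1971 features changed, 578 of them lower, and with cyclic loess 1518 were lower. Mkl1 was 0.40 (adjusted p = 0.0848) under median scaling and 0.40 (0.0557) as the mean over its probes. Klf5 was called under median scaling (-0.59, 0.0362), and Mef2c was not called without scaling (0.71, 0.0651), where Elk1 turned to 0.028. The cause was not tested. The stricter filter tested only Srf, Mkl1 and Klf4, and all 3 were called.

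Leaving out each array gave 2440 to 3959 changed features, 1178 to 1895 higher and 1262 to 2233 lower, the lowest counts being those without high density replicate 1. In these fits Srf ranged from 0.92 to 0.96, Mkl1 from 0.41 to 0.64, Klf4 from -0.98 to -0.71, Klf5 from -0.69 to -0.24, Mef2c from 0.49 to 0.71 and Elk1 from -0.11 to -0.05. With the replicate block 7019 features changed, 2882 higher and 4137 lower, 5 of the 10 factors changed, and Klf5 was called (-0.47, adjusted p = 0.0091). Over the 13676 features, the difference between replicates 1 and 2 at high density correlated at 0.368 with that at regular density. The median negative control spot also split by replicate number, as given beside Gata6. With 2 arrays per group, whether a replicate number marks a shared experiment cannot be shown and was not tested. Values of Mkl2, Gata6 and Tcf21, and of Myocd at regular density, lay under background, so differences among them could not be measured at this signal.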
